A study of Mus musculus with 8 samples.

Results

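Transcript levels of 9 lipogenic and nutrient-sensing transcription regulators were followed in mouse liver: Srebf1 (SREBP1), Mlxipl (ChREBP), Mlx, Usf1, Usf2, Tfeb, Tfe3, Crtc2 and Klf15. They were taken by symbol from the 23337 gene symbols counted in every library, as a list drawn up with earlier results of these data known, and all 9 were among the 14328 genes that passed the filter on low counts. The livers came from 12-week-old C57BL/6 mice, either wild type (WT) or HRD1Alb (genotype Hrd1-/- in the sample labels). HRD1Alb mice are homozygous for a floxed Hrd1 allele and carry Cre recombinase under the albumin promoter. The study describes its control mice as floxed mice without Cre, and calls the mice sequenced here WT. Hrd1 is the gene Syvn1 and encodes an ubiquitin ligase of the endoplasmic reticulum. Albumin-driven Cre acts in the hepatocyte lineage from early liver development onward. Mice of each genotype were labelled fasted, after an overnight fast, or refed, with 4 h of food after the fast. Feeding state follows the titles and treatment labels, since the protocol field of all 8 samples, those titled fasted included, describes an overnight fast and 4 h of refeeding. This gave 4 groups of 2 libraries, WT fasted, HRD1Alb fasted, WT refed and HRD1Alb refed. The labels do not say that the 2 libraries of a group came from different mice, so p-values measure the spread between libraries, which may be technical.

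These proteins couple feeding to gene activity in the hepatocyte. SREBP1 is made as a membrane-bound precursor that SCAP carries from the endoplasmic reticulum to the Golgi for cleavage, INSIG proteins retain it, and insulin raises both its transcription and its processing. ChREBP responds to glucose metabolites and binds DNA as a heterodimer with MLX. USF1 and USF2 are helix-loop-helix factors that act with SREBP1 at lipogenic promoters. TFEB and TFE3 drive lysosome and autophagy genes and are held in the cytoplasm by mTORC1 phosphorylation when nutrients are plentiful. CRTC2 is a CREB coactivator of gluconeogenic genes in fasting, and KLF15 promotes amino acid catabolism and gluconeogenesis. Much of this control acts on the proteins, through cleavage, phosphorylation or location, and read counts measure transcripts only.

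The helix-loop-helix members recognise E-boxes, whose core letters are CACGTG. SREBPs also bind sterol elements, here searched as TCACNCCAC, and CREB binds cAMP elements, searched as the core TGACG. These letters were looked for on both strands in the 250 bases before each annotated transcription start (RefSeq, GRCm38.p6), and the motifs do not overlap each other in the promoters shown. Entries for 7 of the 9 genes were found, with 14 promoters in all. An E-box was present in 3 of the 14, against 6.02% of the 32851 promoters of the same length. The sterol element was in 1 of 14, against 1.05% of all promoters, and the cAMP core was in 1 of 14, against 17.8%. The 4 promoters with a match are given here because they belong to members whose protein products, or those of other members, bind these letters, with the matches in capitals. Mlxipl has a pair of starts 17001 bases apart. Their promoters lie at chr5:135089640-135089889 and chr5:135106641-135106890, on the plus strand. The promoter of Mlx lies at chr11:101087040-101087289 and that of Klf15 at chr6:90462326-90462575, also on the plus strand.
Mlxipl, upstream start: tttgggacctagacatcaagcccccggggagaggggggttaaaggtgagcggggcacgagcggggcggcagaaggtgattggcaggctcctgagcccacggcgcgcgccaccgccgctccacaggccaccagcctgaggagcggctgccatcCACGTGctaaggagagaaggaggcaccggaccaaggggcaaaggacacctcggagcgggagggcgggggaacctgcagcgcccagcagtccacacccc
Mlxipl, downstream start: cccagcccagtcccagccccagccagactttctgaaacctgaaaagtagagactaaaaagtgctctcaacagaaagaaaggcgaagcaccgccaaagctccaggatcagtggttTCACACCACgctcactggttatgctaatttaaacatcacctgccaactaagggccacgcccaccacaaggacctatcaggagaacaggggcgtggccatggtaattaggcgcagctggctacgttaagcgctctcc
Mlx: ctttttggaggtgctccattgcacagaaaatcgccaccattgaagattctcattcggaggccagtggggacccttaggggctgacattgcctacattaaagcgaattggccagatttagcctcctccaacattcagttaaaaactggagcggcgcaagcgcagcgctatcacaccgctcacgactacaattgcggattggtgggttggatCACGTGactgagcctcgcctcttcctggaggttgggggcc
Klf15: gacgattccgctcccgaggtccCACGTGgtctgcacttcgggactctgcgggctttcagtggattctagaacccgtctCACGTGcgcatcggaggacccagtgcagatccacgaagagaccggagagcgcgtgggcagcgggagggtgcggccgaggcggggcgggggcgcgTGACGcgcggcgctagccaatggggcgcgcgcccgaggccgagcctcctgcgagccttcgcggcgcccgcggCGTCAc
The upstream Mlxipl promoter holds 1 E-box, 98 to 93 bases before the start, and the downstream promoter holds 1 sterol element, 136 to 128 bases before its start. In Mlx the single E-box lies 40 to 35 bases before the start. Klf15 holds 2 E-boxes and 2 copies of the cAMP core, one on each strand. A match describes letters and not an occupied site. ChREBP is known to be made in an alpha and a beta form from alternative first exons, and SREBP1 in a 1a and a 1c form. The counts were summed per gene, so forms of 1 gene cannot be told apart.

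The libraries held between 40210576 and 49117080 counts. Syvn1, the deleted gene, was at 111 and 99.8 CPM (read counts brought to a common library size, after scaling by the trimmed mean of M values, TMM) in fasted WT liver and at 32.6 and 31.5 CPM in fasted HRD1Alb liver. In refed WT liver it was at 637 and 305 CPM. The libraries labelled HRD1Alb refed held 453 CPM (replicate 1) and 132 CPM (replicate 2), so the library labelled replicate 1 lay between the refed WT libraries and went against its label. Between genotypes Syvn1 did not pass the test, with log2 differences of -1.72 fasted and -0.69 refed (edgeR adjusted p = 0.170 and 0.391). The exons removed from the floxed allele are not given in the sources used here, and transcripts lacking them may still be counted. The 2 libraries labelled HRD1Alb refed also stood further apart than any other pair: 3204 genes differed at least 2-fold between them, against 424 to 1141 in the other groups. Their difference followed transcript length (Spearman rho across 12941 genes of -0.58, against -0.11 to 0.03 in the other groups; genes are not independent replicates). Counts of calls in refed HRD1Alb liver are therefore also given without each of these libraries, which are named by their labels throughout, and those of the members also with a correction for length that was chosen after the data were seen.

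Marker genes placed the tissue as liver, with hepatocyte transcripts (Alb, Apoa1, Ttr, Apob, Serpina1a, Cyp2e1 and Trf) summing to 155102 and 170602 CPM in fasted WT and to 98926 and 102921 CPM in fasted HRD1Alb libraries. In refed liver their sum was 125628 and 134691 CPM in WT and 74823 and 118107 CPM in HRD1Alb libraries, and 1 of the 7, Apob, passed the test, lower in HRD1Alb liver (log2 difference -1.24). The 5 Kupffer cell markers summed to between 70.3 and 85.5 CPM in the 4 WT libraries and to between 161 and 351 CPM in the 4 HRD1Alb libraries, and 4 of the 5 (Cd5l, Clec4f, Emr1 and Vsig4) passed the test as higher in refed HRD1Alb liver, and Emr1 also in fasted HRD1Alb liver (1.47, edgeR adjusted p = 0.0385). Stellate cell markers summed to between 154 and 326 CPM in WT and between 316 and 420 CPM in HRD1Alb libraries, with 2 of 5, Col1a1 and Des, higher in refed HRD1Alb liver. Endothelial (83.7 to 107 CPM), cholangiocyte (8.98 to 22.5 CPM) and lymphocyte (1.29 to 4.06 CPM) markers had no gene past the test between genotypes, and no listed marker was at 0 in all libraries. In whole tissue, fewer cells of a type and less RNA per cell cannot be told apart. The part of cell makeup in the results below was not tested.

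After refeeding, the ChREBP transcript was lower in HRD1Alb than in WT liver, to 0.390 of the WT level. The SREBP1 transcript had a log2 difference of -1.20 that missed the threshold, and neither passed the test in fasted liver. Srebf1 rose with refeeding in WT liver, and in HRD1Alb liver its log2 difference of 1.20 missed the threshold. In HRD1Alb liver Mlx rose and Crtc2 fell with refeeding. In WT liver their refeeding differences had the same signs, at 0.69 and -0.34, and missed the threshold. Of 17 alternative fits, 8 lost the call of Mlxipl between refed genotypes and 6 lost that of Srebf1 in WT liver. The calls of Mlx and Crtc2 in HRD1Alb liver were lost in 3 and 5 of the 17. The direction of these 4 differences held in all 17. Usf1, Usf2, Tfeb and Tfe3 did not pass the test in any of these comparisons with TMM scaling of the 8 libraries, and after the length correction Tfe3 was called higher with refeeding in HRD1Alb liver. Genes were tested with the quasi-likelihood F test of edgeR on all 4 groups, and a gene was called where its p was under 0.05 after Benjamini-Hochberg adjustment across all 14328 genes. An exact permutation test of 2 libraries against 2 cannot give a two-sided p under 0.333, so the model across all genes carries every call.

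In the fasted state 0 of the 9 genes were called between genotypes, where 0.921% of all tested genes were called higher and 0.433% lower in HRD1Alb liver. None reached an unadjusted p under 0.05 in edgeR, and DESeq2 and limma also called 0. In 8 of the 9 the log2 fold change was negative, with a median of -0.16 against -0.02 over all tested genes. This direction depended on the scaling: with total counts in place of TMM factors the median of all genes moved by 0.38 on the log2 scale and the median of the 9 became 0.22. Relative to the median of all genes, 7 of the 9 were below and Crtc2 and Klf15 above it, with either scaling.

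In the refed state 1 of the 9 genes, Mlxipl, was called lower in HRD1Alb liver and none was called higher. Over all tested genes 4.84% were called lower and 7.09% higher in this comparison. Unadjusted p-values under 0.05 were found for 4 members: Srebf1, Mlxipl, Crtc2 and Klf15, each with a negative log2 difference. The median over the 9 was -0.01, against 0.04 over all tested genes. Refeeding called 1 of the 9, Srebf1, as higher in WT liver, against 1.2% of all genes called higher and 1.41% lower. In HRD1Alb liver refeeding called Mlx higher and Crtc2 lower, against 5.43% of all genes called higher and 5.05% lower. The median over the 9 with refeeding was 0.09 in WT and 0.39 in HRD1Alb liver, against 0.00132 and 0.02 over all tested genes. The comparisons share libraries, since each group enters a genotype and a refeeding comparison, so their calls are not independent. The difference between the genotypes in the response to refeeding was tested as an interaction. It called 0 of the 9 genes, and 0% of all tested genes, with edgeR. The unadjusted p was under 0.05 for 1 member, Crtc2, and DESeq2 and limma called 0 members. None of the refeeding responses below is thus shown to differ between genotypes on all 8 libraries.

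**Figure D1:**
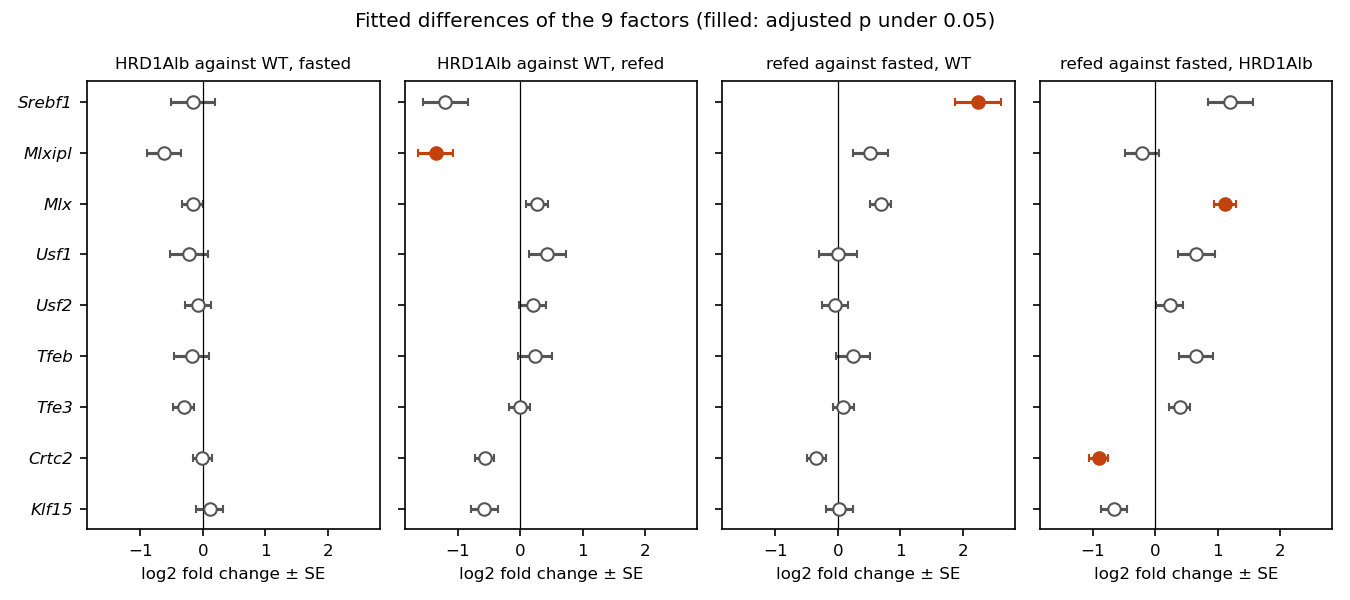
Fitted log2 fold change (horizontal axis, bars are SE) of each of the 9 genes in the genotype comparisons of fasted and refed liver and the refeeding comparisons of WT and HRD1Alb liver, 2 libraries per group. Filled points are called at an adjusted p under 0.05: Mlxipl lower in refed HRD1Alb liver, Srebf1 higher with refeeding in WT liver, and Mlx higher and Crtc2 lower with refeeding in HRD1Alb liver.

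Srebf1 (chr11:60199089-60222581, minus strand) was at 32.6 and 29.4 CPM in fasted WT liver and at 25.0 and 30.9 CPM in fasted HRD1Alb liver. After refeeding it was at 88.8 and 206 CPM in WT liver and at 66.6 and 61.9 CPM in HRD1Alb liver. Every refed library lay above every fasted library, and both refed HRD1Alb libraries lay below both refed WT libraries, which themselves differed more than 2-fold. In WT liver Srebf1 rose by 2.25 on the log2 scale with refeeding (SE 0.370, edgeR adjusted p = 0.0336), a 4.76-fold difference. In HRD1Alb liver the log2 difference was 1.20 (SE 0.358, edgeR adjusted p = 0.0733). It was called with DESeq2 (adjusted p = 0.0116), after the length correction (1.40, edgeR adjusted p = 0.0398), without either refed WT library (edgeR adjusted p = 0.0381 and 0.0380) and without HRD1Alb refed replicate 1 (edgeR adjusted p = 0.0485), and not without replicate 2 (edgeR adjusted p = 0.0708). Between genotypes the log2 difference was -0.15 in fasted liver (edgeR adjusted p = 0.873) and -1.20 in refed liver (SE 0.357, edgeR adjusted p = 0.0692). DESeq2 called the refed difference (-1.21, DESeq2 adjusted p = 0.0106). The size of the refed difference depended on which WT library was kept: it was -0.47 without WT refed replicate 2 and -1.69 without WT refed replicate 1. It was -1.26 without HRD1Alb refed replicate 1 and -1.15 without replicate 2. The rise in WT liver was 1.52 without WT refed replicate 2 and 2.73 without replicate 1. Leaving out any 1 of the 6 libraries other than the refed HRD1Alb pair ended this call, with edgeR adjusted p between 0.0606 and 0.208.

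Mlxipl (chr5:135089890-135138382, plus strand) encodes ChREBP, the glucose-responsive activator of glycolytic and lipogenic genes. It was at 224 and 182 CPM in fasted WT, 116 and 149 CPM in fasted HRD1Alb, 278 and 306 CPM in refed WT and 144 and 83.7 CPM in refed HRD1Alb libraries. In both feeding states the HRD1Alb libraries lay below the WT libraries with no overlap. The refed difference was -1.36 on the log2 scale (SE 0.280, edgeR adjusted p = 0.0292), to 0.390 of the WT level, and the fasted difference was -0.62 (SE 0.277, edgeR adjusted p = 0.290). Refeeding moved Mlxipl by 0.52 in WT liver (edgeR adjusted p = 0.423) and by -0.21 in HRD1Alb liver (edgeR adjusted p = 0.616), where the direction turned to 0.13 without HRD1Alb refed replicate 2. The interaction was -0.74 (SE 0.390, edgeR adjusted p = 0.614). Without HRD1Alb refed replicate 1 the refed genotype difference was -1.81, and without replicate 2 it was -1.02, and both were called. Leaving out any 1 of the other 6 libraries ended the call, with edgeR adjusted p-values between 0.0510 and 0.181, and so did total-count scaling (-1.10, adjusted p = 0.0717) and a fit on the 4 refed libraries alone (-1.35, adjusted p = 0.139). In fasted liver the difference of -0.62 was called without either library labelled HRD1Alb refed (edgeR adjusted p = 0.0304 and 0.0311), in fits that called 21.7% and 21.3% of all genes.

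Mlx (chr11:101087277-101092207, plus strand), the partner through which ChREBP binds DNA, was higher in every refed than in every fasted library. Its level was 36.9 and 41.5 CPM in fasted WT, 36.2 and 33.8 CPM in fasted HRD1Alb, 62.5 and 63.5 CPM in refed WT and 85.2 and 66.7 CPM in refed HRD1Alb liver. In HRD1Alb liver it rose by 1.12 on the log2 scale (SE 0.173, edgeR adjusted p = 0.0133), a 2.17-fold difference. In WT liver the difference was 0.69 (SE 0.172, edgeR adjusted p = 0.0972). The WT difference was called with DESeq2 (0.68, DESeq2 adjusted p = 0.0119). It was also called in a fit on the 4 WT libraries alone (0.68, edgeR adjusted p = 0.0116). The refed genotype difference was 0.27 (SE 0.171, edgeR adjusted p = 0.294), and the fasted one was -0.16 (edgeR adjusted p = 0.682). The refed difference was 0.0104 after the length correction, 0.0759 without HRD1Alb refed replicate 1 and 0.43 without replicate 2. The rise in HRD1Alb liver was no longer past the threshold without either fasted HRD1Alb library (edgeR adjusted p = 0.116 and 0.142). It was 0.93 without HRD1Alb refed replicate 1 and 1.28 without replicate 2, called in both. In a fit on the 4 HRD1Alb libraries alone neither this rise nor the fall of Crtc2 passed (edgeR adjusted p = 0.131 and 0.159).

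**Figure D2:**
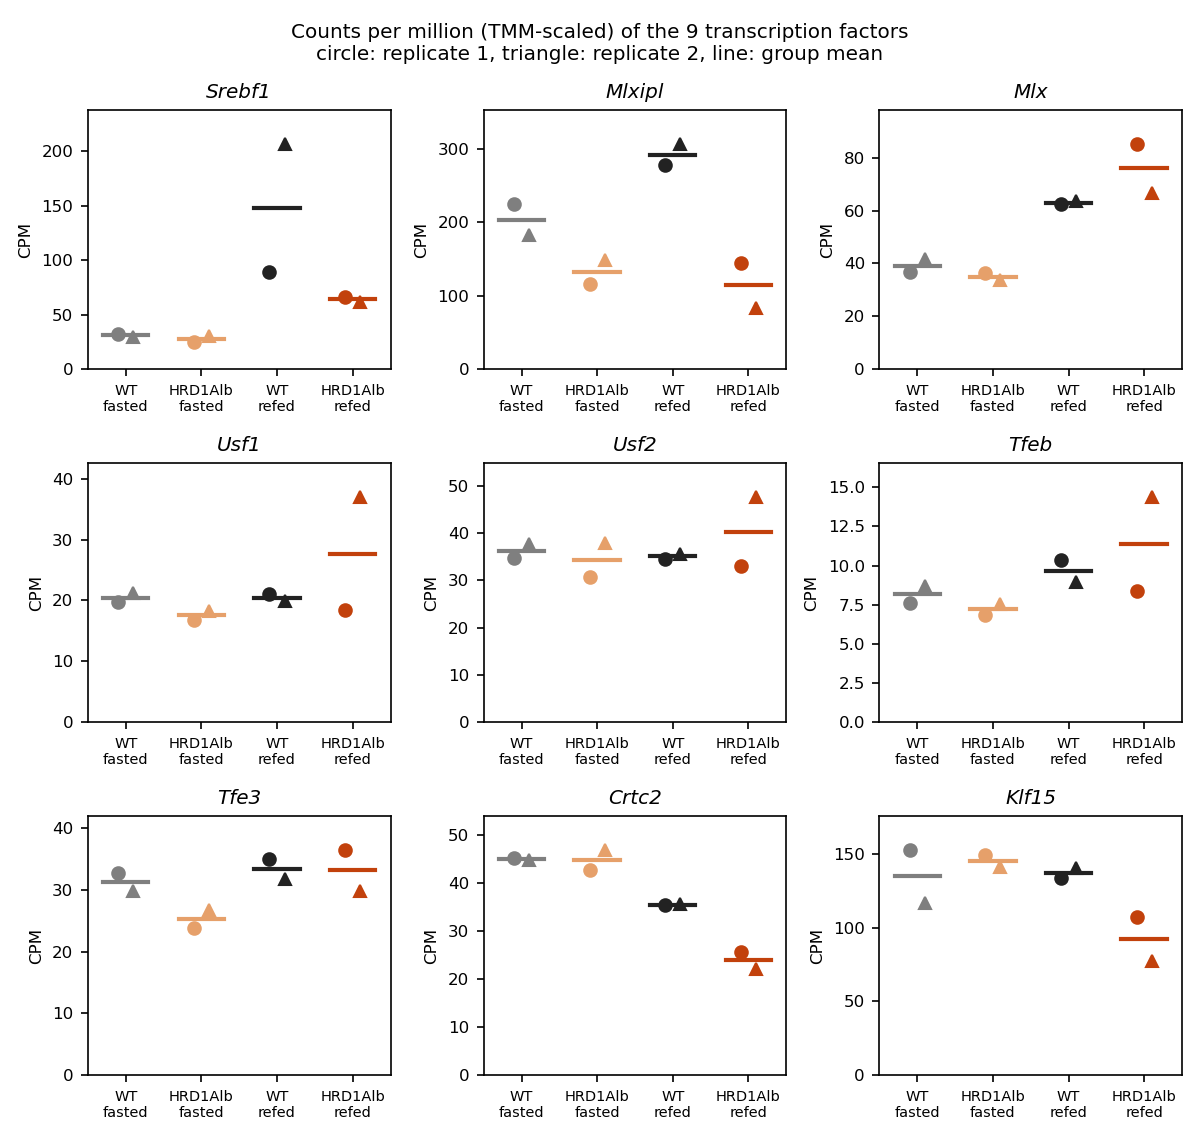
TMM-scaled CPM (vertical axes, each from 0) of the 9 genes in the 8 libraries, by group, with circles for replicate 1, triangles for replicate 2 and lines at group means. Srebf1 and Mlx are higher in every refed than in every fasted library, Mlxipl is lower in HRD1Alb libraries of both feeding states, and Usf1, Usf2 and Tfeb are highest in the library labelled HRD1Alb refed replicate 2.

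Usf1 and Usf2, which bind E-boxes as homodimers or heterodimers, were nearly flat outside 1 library. Usf1 (chr1:171411313-171419142) was at 19.8, 21.2, 16.8 and 18.2 CPM in the fasted WT and HRD1Alb libraries and at 21.01 and 19.9 CPM in refed WT liver. In refed HRD1Alb liver it was at 18.3 CPM in replicate 1 and 37.0 CPM in replicate 2. Usf2 (chr7:30945248-30956803) ran from 30.7 to 38.0 CPM over 7 libraries and was at 47.7 CPM in HRD1Alb refed replicate 2. The refed genotype differences were 0.43 (SE 0.301) for Usf1 and 0.20 (SE 0.212) for Usf2 on the log2 scale, with edgeR adjusted p = 0.331 and 0.519. Without HRD1Alb refed replicate 1 these differences were 0.85 and 0.43. Without replicate 2 both turned, to -0.16 and -0.10.

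Tfeb (chr17:47737030-47792419) and Tfe3 (chrX:7762560-7775202) encode the lysosome and autophagy regulators. Tfeb was the lowest of the members per kilobase, at 7.63 and 8.69 CPM in fasted WT, 6.84 and 7.56 CPM in fasted HRD1Alb, 10.3 and 8.95 CPM in refed WT and 8.38 and 14.4 CPM in refed HRD1Alb liver. Even there each library held at least 306 counts. Its refed genotype difference was 0.24 (SE 0.272, edgeR adjusted p = 0.553), and it was 0.57 without HRD1Alb refed replicate 1 and -0.21 without replicate 2. Tfe3 was at 32.8 and 29.9 CPM in fasted WT and 23.9 and 26.7 CPM in fasted HRD1Alb liver, which do not overlap, but the log2 difference of -0.31 (SE 0.169) did not pass (edgeR adjusted p = 0.390). In refed liver Tfe3 was at 35.0 and 31.8 CPM in WT and 36.5 and 29.9 CPM in HRD1Alb libraries, with a log2 difference of -0.01 (SE 0.169). Refeeding in HRD1Alb liver gave 0.66 (SE 0.273) for Tfeb and 0.39 (SE 0.169) for Tfe3, with edgeR adjusted p = 0.150 and 0.159. The Tfe3 difference was called after the length correction (0.48, edgeR adjusted p = 0.0441). It was 0.53 without HRD1Alb refed replicate 2 and 0.24 without replicate 1.

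Crtc2 (chr3:90254163-90264125), the fasting coactivator of CREB, was the member with the tightest replicates in WT liver. It was at 45.2 and 44.7 CPM in fasted WT, 42.6 and 46.9 CPM in fasted HRD1Alb, 35.3 and 35.6 CPM in refed WT and 25.6 and 22.1 CPM in refed HRD1Alb liver. The genotypes overlapped when fasted and separated when refed. In HRD1Alb liver Crtc2 fell with refeeding, with a log2 difference of -0.91 (SE 0.152, edgeR adjusted p = 0.0157), to 0.534 of the fasted level. In WT liver the difference was -0.34 (SE 0.151, edgeR adjusted p = 0.322). The WT difference was called in a fit on the 4 WT libraries alone (-0.35, edgeR adjusted p = 0.0452). DESeq2 did not call it (-0.35, DESeq2 adjusted p = 0.254). The refed genotype difference of -0.57 (SE 0.151) lay at the threshold, with edgeR adjusted p = 0.0514. It was called without either refed HRD1Alb library (-0.69 without replicate 1 and -0.47 without replicate 2), with DESeq2 and limma (adjusted p = 0.00706 and 0.0498), and after the length correction (-0.71). It was not called with total-count scaling (-0.34, edgeR adjusted p = 0.286) or in a fit on the 4 refed libraries alone (-0.56, edgeR adjusted p = 0.232). Nor was it called without a low-count filter, with at least 10 counts in every sample or with the replicate block (edgeR adjusted p = 0.0686, 0.0567 and 0.0707). It was also not called when any 1 of the other 6 libraries was left out, at -0.58 to -0.57. Of the 17 alternatives, 6 called this difference. Its interaction was -0.56 (SE 0.213, edgeR adjusted p = 0.583). The call of the fall in HRD1Alb liver ended when any 1 of the fasted HRD1Alb or refed WT libraries was left out, with edgeR adjusted p between 0.0553 and 0.153.

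Klf15 (chr6:90462576-90475238), the regulator of amino acid catabolism, was at 153 and 117 CPM in fasted WT, 150 and 141 CPM in fasted HRD1Alb and 134 and 141 CPM in refed WT liver. It was at 107 and 77.2 CPM in the refed HRD1Alb libraries, below the other 6. The refed genotype difference was -0.58 (SE 0.211, edgeR adjusted p = 0.108) and the refeeding difference in HRD1Alb liver was -0.66 (SE 0.211, edgeR adjusted p = 0.0883). In WT liver refeeding gave 0.03 (edgeR adjusted p = 0.979). Without HRD1Alb refed replicate 1 the refed genotype difference was -0.84, and without replicate 2 it was -0.36.

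Which members were called in refed HRD1Alb liver depended on its 2 libraries. Without replicate 1, 7 of the 9 were called between refed genotypes, all but Mlx and Tfe3, against 52.8% of all tested genes called in that fit. Without replicate 2, 3 were called, Mlxipl, Mlx and Crtc2, against 23.7% of all tested genes. Only Mlxipl and Crtc2 were called in both of these fits, and both were lower in HRD1Alb liver in each. The length correction also called 3, Mlxipl, Crtc2 and Klf15, against 20.5% of the 12941 genes with a length. With refeeding in HRD1Alb liver 8 of the 9, all but Tfe3, were called without replicate 1, against 51.4% of all tested genes, and 3 (Mlx, Tfe3 and Crtc2) without replicate 2, against 19.7%. The interaction called 5 members (Mlxipl, Usf1, Tfeb, Crtc2 and Klf15) without replicate 1, where 33.4% of all genes were called, and 0 without replicate 2. A lone library in a group is assumed in these fits to vary like the other groups.

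**Figure D3:**
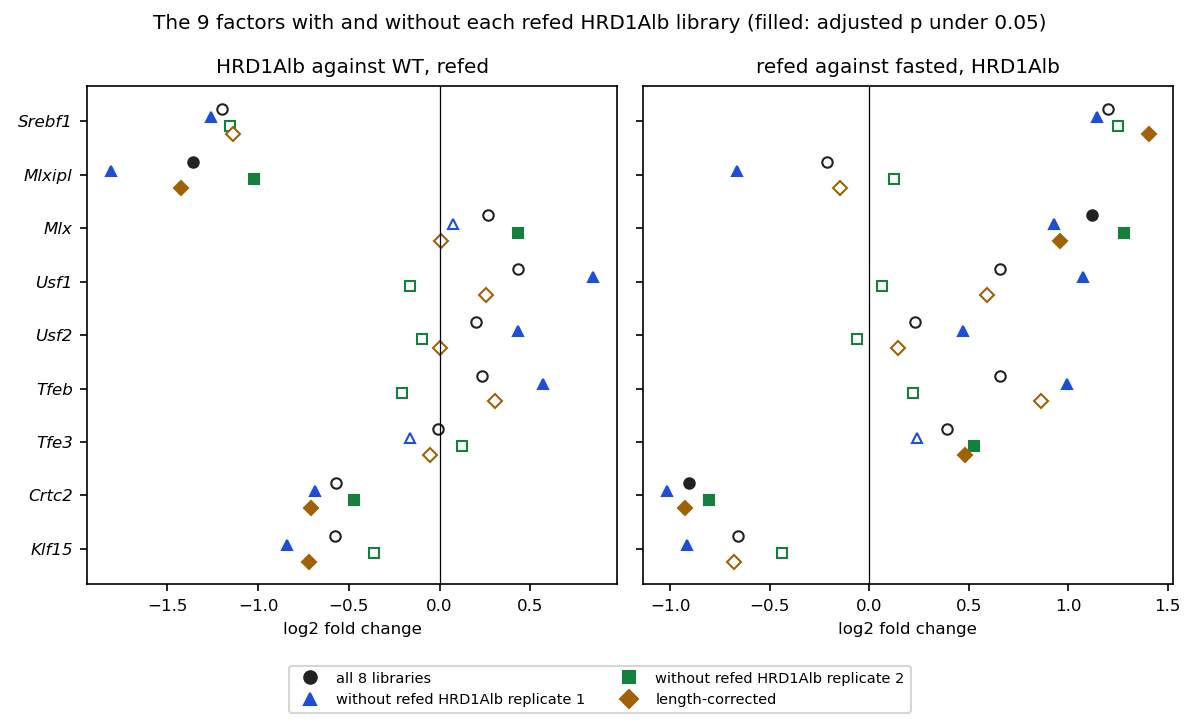
Log2 fold change (horizontal axis) of the 9 genes between refed genotypes and between feeding states in HRD1Alb liver, with all 8 libraries, without either refed HRD1Alb library and after a length correction. Filled points are called at an adjusted p under 0.05. Between refed genotypes Srebf1, Mlxipl, Mlx, Crtc2 and Klf15 keep their direction in all 4 fits. Usf1, Usf2, Tfeb and Tfe3 change sign there without HRD1Alb refed replicate 2.

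Levels of different genes were compared as CPM per kilobase of merged exons (GENCODE M21, GRCm38). In refed WT liver Mlxipl stood highest, at 80.6 ± 5.54 CPM per kb (SD, n = 2), followed by Klf15 at 50.0 ± 1.75, Srebf1 at 34.3 ± 19.4 and Mlx at 31.7 ± 0.336. The libraries of Srebf1 and Mlx overlapped in this order. In refed HRD1Alb liver the order was Mlx (38.2 ± 6.56 CPM per kb), Klf15 (33.5 ± 7.73) and Mlxipl (31.4 ± 11.8), with overlapping libraries at each step, and Srebf1 came after Usf2 and before Usf1, at 14.9 ± 0.762. In fasted WT liver Mlxipl (56.1 ± 8.23 CPM per kb) and Klf15 (49.0 ± 9.28) overlapped at the top, whereas in fasted HRD1Alb liver Klf15 (52.8 ± 2.08) lay above Mlxipl (36.5 ± 6.49) with no overlap. Srebf1 was next to last in both fasted groups, at 7.22 ± 0.527 CPM per kb in WT and 6.50 ± 0.964 in HRD1Alb liver. Tfeb was lowest in every group, from 1.79 ± 0.125 to 2.83 ± 1.06 CPM per kb.

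The pathway lists below were drawn up with earlier results of these data known, and they are described by counts and medians. Counts on 8 libraries are to be read against the shares of all tested genes called higher and lower. These were 0.921% and 0.433% between fasted genotypes and 7.09% and 4.84% between refed genotypes. With refeeding they were 1.2% and 1.41% in WT liver and 5.43% and 5.05% in HRD1Alb liver. Counts without 1 library are to be read against the share of all genes called in the same fit: between refed genotypes 52.8% without HRD1Alb refed replicate 1 and 23.7% without replicate 2, and with refeeding in HRD1Alb liver 51.4% and 19.7%. The first holds SREBP1 targets of fatty acid synthesis. Of 15 such genes, 3 were called higher and 2 lower with refeeding in WT liver, with a median log2 fold change of 0.33, and 6 were called higher and 3 lower in HRD1Alb liver, with a median of 0.29. Without HRD1Alb refed replicate 1 the HRD1Alb count was 6 higher and 4 lower with a median of 0.27, and without replicate 2 it was 5 higher and 4 lower with a median of 0.0548. Fasn, the fatty acid synthase, rose by 1.99 in WT and 1.59 in HRD1Alb liver, and Acly, the citrate lyase that supplies acetyl-CoA, by 1.54 and 1.50. Elovl5, a fatty acid elongase, fell in both, with log2 differences of -1.11 in WT and -1.38 in HRD1Alb liver, as did Acacb, the mitochondrial acetyl-CoA carboxylase (-1.35 and -1.71). The medians over all tested genes were 0.00132 in WT and 0.02 in HRD1Alb liver.

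Between genotypes the same list was called lower only: 2 of 15 genes in fasted and 4 of 15 in refed liver, none higher, with a median of -0.36 and -0.72, against -0.02 and 0.04 over all tested genes. Scd1, the stearoyl-CoA desaturase, was at 1439 and 2597 CPM in fasted WT and at 145 and 378 CPM in fasted HRD1Alb liver. After refeeding it was at 2378 and 2170 CPM in WT and 156 and 241 CPM in HRD1Alb liver. Its log2 difference between genotypes was -2.95 fasted (SE 0.508, edgeR adjusted p = 0.0478) and -3.52 refed (SE 0.521, edgeR adjusted p = 0.0136), with no overlap. Elovl5 (-1.21) and Fads2, the delta-6 desaturase (-1.08), were also called lower in refed HRD1Alb liver, and Me1, the malic enzyme (-1.22), was called lower in fasted liver. Fasn was at 267 and 529 CPM in refed WT and 216 and 267 CPM in refed HRD1Alb liver, a difference of -0.72 that did not pass (edgeR adjusted p = 0.188). The number called lower in refed liver was 6 of 15 without HRD1Alb refed replicate 1 (52.8% of all genes called in either direction) and 9 without replicate 2 (23.7%), again with none higher.

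Genes that process SREBP or act upstream of it gave 0 of 15 called in fasted liver and 4 of 15 called lower in refed HRD1Alb liver, with a median of -0.38. They were Bhlhe41 (-2.72), a circadian repressor with levels of only 0.132 to 1.61 CPM, Insr (-1.04), the insulin receptor, Rxra (-0.63), the partner of LXR, and Scap (-0.57), the SREBP escort. Scap was at 131 and 128 CPM in refed WT and 84.9 and 89.9 CPM in refed HRD1Alb liver. Of the 15 genes, 8 were called lower and 1 higher without HRD1Alb refed replicate 1, where 52.8% of all genes were called, and 4 lower and none higher without replicate 2, where 23.7% were called, shares near the background. After the length correction 2 were called lower. With refeeding in HRD1Alb liver 2 of 15 were called lower on 8 libraries, 9 lower and 2 higher without replicate 1 (51.4% of all genes) and 6 lower without replicate 2 (19.7%). In WT liver the INSIG genes changed in opposite directions with refeeding. Insig1, itself an SREBP target, rose by 2.91 with refeeding in WT liver (SE 0.475, edgeR adjusted p = 0.0336), with a difference of 1.54 in HRD1Alb liver (edgeR adjusted p = 0.0706). Insig2, whose liver transcript is known to be repressed by insulin, fell, with log2 differences of -2.28 in WT and -2.06 in HRD1Alb liver (edgeR adjusted p = 0.0120 and 0.00638). In the genotype comparisons neither INSIG gene passed the test. The paralog Srebf2 was at 69.4 and 91.2 CPM in refed WT and 64.0 and 46.7 CPM in refed HRD1Alb liver, and its difference of -0.54 did not pass (edgeR adjusted p = 0.161).

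None of the 14 listed ChREBP targets was called lower in HRD1Alb liver on the 8 libraries. Over all tested genes 0.433% were called lower when fasted and 4.84% when refed. The study names Scd1 and Fads2, which stand in the SREBP1 list here, among target genes of SREBP1 and ChREBP. Of the 14 listed genes, 1 was called higher in fasted and 2 higher in refed HRD1Alb liver, with medians of -0.28 and -0.03. The genes were Fgf21, a fasting hormone that PPAR alpha and the stress factor ATF4 also induce, and, when refed, Tmem97. Fgf21 was at 14.1 and 14.6 CPM in fasted WT and 53.2 and 59.4 CPM in fasted HRD1Alb liver. After refeeding it was at 1.53 and 2.21 CPM in WT and 25.6 and 21.9 CPM in HRD1Alb liver, a difference of 3.67 (SE 0.228, edgeR adjusted p = 0.00148). Pklr, the liver pyruvate kinase and a defining ChREBP target, was at 82.1 and 117 CPM in refed WT and 69.3 and 53.1 CPM in refed HRD1Alb liver, and its difference of -0.70 did not pass (edgeR adjusted p = 0.0746). Without HRD1Alb refed replicate 1 the list had 2 higher and 2 lower, without replicate 2 it had 2 higher and 4 lower, and after the length correction it had 1 higher and 3 lower of 13. In these fits 52.8%, 23.7% and 20.5% of all genes were called. With refeeding the list gave 1 higher and 5 lower in WT and 3 higher and 4 lower in HRD1Alb liver, where it gave 7 higher and 4 lower without replicate 1 (51.4% of all genes) and 3 higher and 4 lower without replicate 2 (19.7%). Txnip, an inhibitor of glucose uptake, fell, with log2 differences of -2.72 and -3.23, and Mid1ip1, a lipogenic regulator, rose by 2.64 and 2.68. The ChREBP paralog Mlxip ran from 5.98 to 21.4 CPM and was not called in any comparison with TMM scaling of the 8 libraries.

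The lysosome and autophagy genes controlled by TFEB and TFE3 gave 0 of 26 called in fasted liver. In refed HRD1Alb liver 2 of 26 were called higher and 5 lower, with a median of -0.07. Over all tested genes 7.09% were called higher and 4.84% lower. Gpnmb, a membrane glycoprotein abundant in macrophages, was called higher, at 5.28 on the log2 scale (SE 0.808, edgeR adjusted p = 0.0142), from 0.296 and 0.210 CPM in WT to 14.0 and 5.96 CPM in HRD1Alb liver. Kupffer cell markers were higher in the same libraries, at 161 (replicate 1) and 351 CPM (replicate 2) in sum against 84.4 and 85.5 CPM, and their part in this result was not tested. Fnip2, a partner of folliculin (-1.28), and Lamp2, a lysosomal membrane protein (-0.69), were called lower, as were Wipi1 and Uvrag of the autophagy machinery (-0.91 and -0.90), and Rragd, a GTPase of the mTORC1 pathway, was called higher (1.41). The list gave 10 higher and 9 lower without HRD1Alb refed replicate 1, where 52.8% of all genes were called, and 4 higher and 8 lower without replicate 2, where 23.7% were called. With refeeding Wipi1, an autophagosome protein, fell, with log2 differences of -1.77 in WT and -2.27 in HRD1Alb liver, and was the only one of the 26 called in WT liver. In HRD1Alb liver refeeding called 1 higher and 3 lower, 5 higher and 8 lower without replicate 1 (51.4% of all genes) and 1 higher and 8 lower without replicate 2 (19.7%). Tfec, a related factor expressed in macrophages, was called higher in refed HRD1Alb liver at 1.25 (SE 0.318, edgeR adjusted p = 0.0467), on levels of 1.19 to 3.66 CPM, and was the only one of 8 paralogs and partners called in any comparison with TMM scaling of the 8 libraries. After the length correction Mnt, a repressor of the MAX network, was also called, lower with refeeding in HRD1Alb liver (-0.90, edgeR adjusted p = 0.0401). For the Tfec result too, Kupffer cell markers were higher in the refed HRD1Alb than in the refed WT libraries, and their part was not tested. Between refed genotypes that list gave 1 higher and 5 lower without HRD1Alb refed replicate 1 (52.8% of all genes called), and 1 higher without replicate 2 (23.7%). With refeeding in HRD1Alb liver it gave 1 higher and 2 lower (51.4%) and 1 lower (19.7%).

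Called genes of the CREB and CRTC2 axis were lower with refeeding: 3 of 11 tested genes were called lower in WT and 5 of 11 in HRD1Alb liver, none higher, with medians of -1.34 and -1.37. In HRD1Alb liver the median was -1.88 with 8 called lower without HRD1Alb refed replicate 1, where 51.4% of all genes were called, and -0.79 with 5 of 12 called lower without replicate 2, where 19.7% were called. Pck1, the gluconeogenic PEPCK, went from 5524 and 4512 CPM in fasted to 578 and 640 CPM in refed WT liver, and from 3530 and 3673 CPM to 306 and 374 CPM in HRD1Alb liver. Its log2 differences were -3.04 (SE 0.208) and -3.40 (SE 0.211), with edgeR adjusted p = 0.00488 and 0.00183. G6pc, the glucose-6-phosphatase that also stands in the ChREBP list, had log2 differences of -3.14 and -2.95, and Pde4d, a cAMP phosphodiesterase, of -1.39 and -1.15. In HRD1Alb liver Ppargc1a, a gluconeogenic coactivator (-2.73), and Sik3, a kinase that restrains CRTC proteins (-1.05), were also called. Pck1 was also the 1 gene of this list called between refed genotypes, lower in HRD1Alb liver (log2 difference -0.84, edgeR adjusted p = 0.0376). Between refed genotypes the list gave 4 lower and 1 higher without replicate 1 (52.8% of all genes called), and 1 lower and 1 higher without replicate 2 (23.7%).

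The list of KLF15-linked amino acid catabolism and its control also holds transcription factors. It gave 2 of 16 called lower in refed HRD1Alb liver, none higher, and 0 in fasted liver, with medians of -0.47 and -0.24. Between refed genotypes 4.84% of all tested genes were called lower and 7.09% higher. Aass, of lysine degradation, was at 574 and 548 CPM in refed WT and 304 and 274 CPM in refed HRD1Alb liver (-0.96, SE 0.182, edgeR adjusted p = 0.0241). Otc, of the urea cycle, was at 521 and 481 CPM against 226 and 305 CPM (-0.92, SE 0.184, edgeR adjusted p = 0.0280). The count was 6 lower and 3 higher without HRD1Alb refed replicate 1, where 52.8% of all genes were called, and 4 lower without replicate 2, where 23.7% were called, shares near the background. With refeeding Aass fell too, with log2 differences of -1.19 in WT and -1.21 in HRD1Alb liver, and so did Tdo2, of tryptophan degradation, in HRD1Alb liver (-1.21). The 2 of 16 called lower there became 7 lower and 3 higher without replicate 1 (51.4% of all genes) and 2 lower without replicate 2 (19.7%). In all lists the interaction called 0 genes on 8 libraries.

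**Figure D4:**
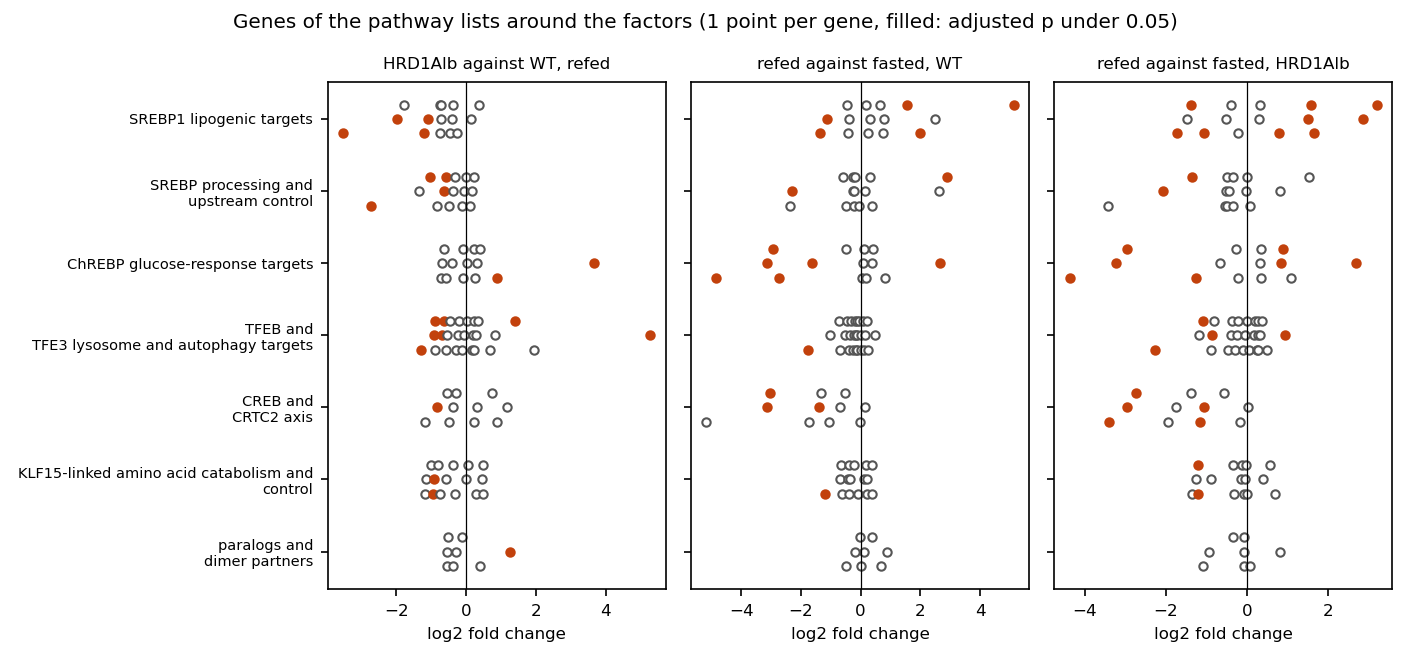
Log2 fold change (horizontal axis) of each gene of the 7 pathway lists between refed genotypes and with refeeding in WT and in HRD1Alb liver, 1 point per gene. Filled points are called at an adjusted p under 0.05. Called SREBP1 targets lie below 0 between refed genotypes, and called genes of the CREB and CRTC2 axis lie below 0 with refeeding in both genotypes.

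Likeness of pattern was measured by Pearson's r of log2 CPM over the 8 libraries, among 11919 genes, as a description. The points share 4 groups and their libraries, so r follows the group means and any library that stands apart. Near to Srebf1 were Sc5d, a sterol desaturase of cholesterol synthesis (r = 0.974), and Fasn (0.969). Nearest to Mlxipl were Hipk2, Pus3 and 0610030E20Rik (0.986 to 0.988), and nearest to Mlx were Mmrn2, Mesdc2 and 4930404N11Rik (0.990 to 0.994). Usf1 ran with Sap30l, Ndufs7 and Pebp1 (0.994 to 0.998), Usf2 with Prkcsh, Tmed1 and Lypla2 (0.958 to 0.976), and Tfeb with Psmb2, Trex1 and Akr1a1 (0.984 to 0.991), and each of these members was highest in HRD1Alb refed replicate 2. Tfe3 was closest to Cul2, Heatr3 and Ubqln4 (0.962 to 0.972), Crtc2 was near to Cir1 and Hbp1 (both 0.991), and Klf15 was closest to 2810403A07Rik, 1700049G17Rik and Sfrs18 (0.990). Among the members themselves r was highest between Usf1 and Tfeb (0.937) and between Usf1 and Usf2 (0.907). Between Srebf1 and Mlxipl it was 0.491, and between Mlxipl and its partner Mlx it was 0.0342. Crtc2 and Mlx ran in opposite directions (-0.868).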

How the data were processed

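Liver RNA from 8 libraries, 2 in each of 4 groups, was sequenced. The authors deposited raw read counts per gene symbol, 1 file a library and not pooled. The study's methods name ERANGE for counting, whereas the submitters' processing notes name cutadapt, STAR, HTSeq, DESeq2 and the build mm10, without roles; versions and annotation are not given in the sources used here. Feeding state was taken from the titles and treatment labels. From the counts, CPM with TMM factors and quasi-likelihood tests were computed in edgeR 4.0.16 (R 4.3.3) on all 8 libraries, with filterByExpr (minimum count 10) and Benjamini-Hochberg adjustment. Totals of 40210576 to 49117080 counts put 3 counts at 0.0611 to 0.0746 CPM, which covers counting error only.

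Alternatives were DESeq2 1.42.0, limma 3.58.1, other scalings and filters, 4 samples only, a replicate block, leaving out each library, and, chosen after seeing the data, offsets corrected for GENCODE M21 transcript length (loess, span 0.5). Lengths were matched for 90.3% of tested genes. The members and the 7 lists were chosen with earlier results of these data known. Named from each list were at most 4 called genes per comparison with the lowest p, plus defining genes; Acacb, Acly, Fasn, Wipi1, Uvrag, Rragd, Sik3, Apob and the called Kupffer and stellate cell markers were named after their values were seen where they fell outside that rule. Mouse symbols Trf and Emr1 stand for Tf and Adgre1. A few genes that the rules would name are not reported here by name, and they stay in the counts and medians.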

Additional observations from a re-analysis of the deposited data

Results flagged for a closer look

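Mlx stood out because its genotype difference ran in opposite directions in the feeding states. Both HRD1Alb libraries were below both WT libraries when fasted (36.2 and 33.8 against 36.9 and 41.5 CPM) and above them when refed (85.2 and 66.7 against 62.5 and 63.5 CPM). The difference between these effects was tested as an interaction, which was 0.4323 on the log2 scale (SE 0.242) and did not pass (edgeR adjusted p = 0.614). The fasted direction turned with total-count scaling, where the median of all genes moved as well. The refed difference of 0.27 was 0.0104 after the length correction and 0.0759 without the library labelled HRD1Alb refed replicate 1.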

How the results depend on the processing

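With all 8 libraries, the number of members called between refed genotypes was 1, and it was 2 with RLE scaling, 0 with total-count scaling, 3 with DESeq2, 2 with limma, 0 on the 4 refed samples only and 3 after the length correction. These fits called 11.9%, 15.8%, 22.3%, 12.1%, 0% and 20.5% of all genes, in that order, against 11.9% with all 8 libraries. Refeeding in WT liver called 1, Srebf1. It called 2 with DESeq2 (Srebf1 and Mlx, 7.58% of all genes) and 3 on 4 samples only (Srebf1, Mlx and Crtc2, 14.0%). Refeeding in HRD1Alb liver called 2, against 4 with DESeq2 (20.4% of all genes), 0 on 4 samples only (0%) and 4 after the length correction (15.7%). Leaving out 1 library at a time gave 0 to 1 called between fasted genotypes, 0 to 7 between refed genotypes, 0 to 3 with refeeding in WT, 0 to 8 with refeeding in HRD1Alb liver and 0 to 5 for the interaction. The upper ends came without the library labelled HRD1Alb refed replicate 1, and fewer samples were then fitted. Those between fasted genotypes and with refeeding in WT liver also came without replicate 2. The fit on 4 samples was not run for the interaction, which needs all groups.

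Total-count scaling moved the median log2 fold change of all genes by 0.38 between fasted genotypes, 0.22 between refed genotypes and 0.15 with refeeding in WT liver. The genes called higher and lower were 132 and 62 between fasted genotypes against 840 and 47 with total-count scaling, 1016 and 693 against 1975 and 283 between refed genotypes, and 172 and 202 against 162 and 76 with refeeding in WT liver. Direction turned in 40 values of members, none of them called. With total-count scaling these were, between fasted genotypes, Srebf1 (0.23), Mlx (0.22), Usf1 (0.16), Usf2 (0.31), Tfeb (0.21), Tfe3 (0.0734) and Crtc2 (0.38), between refed genotypes Tfe3 (0.23), and with refeeding in WT liver Usf1 (0.15) and Usf2 (0.11). With at least 10 counts in every sample, Crtc2 turned to 0.0224 fasted and Tfe3 to 0.0307 refed, and on 4 samples only Crtc2 turned to 0.0319 fasted. Usf1 with refeeding in WT liver, at -0.00 on 8 libraries, was 0.000325 with limma, 0.00114 without a filter, 0.00828 after the length correction and 0.00868 with the replicate block.

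Without 1 library at a time, the values that turned ranged between fasted genotypes from -0.24 to 0.0652 (Usf2), -0.0790 to 0.0567 (Crtc2) and -0.0422 to 0.31 (Klf15). Between refed genotypes they ranged from -0.16 to 0.85 (Usf1), -0.10 to 0.43 (Usf2), -0.21 to 0.57 (Tfeb) and -0.16 to 0.12 (Tfe3). With refeeding in WT liver they ranged from -0.0500 to 0.0817 (Usf1), -0.10 to 0.0454 (Usf2) and -0.12 to 0.23 (Klf15), and in HRD1Alb liver from -0.66 to 0.13 (Mlxipl) and -0.0596 to 0.47 (Usf2). The interaction ranged from -0.0166 to 0.51 (Usf2) and -0.0248 to 0.75 (Tfeb). Deviations from the group mean were weakly correlated between libraries with the same replicate number (r = 0.0161 to 0.179). Such values cannot settle whether the numbers pair samples. The replicate block changed no count of members called: 0, 1, 1, 2 and 0 in the 5 comparisons. The cause of these changes was not tested.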
